A study of Mus musculus with 12 samples.

Results

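The genes described here encode the proteins of the cytosolic ribosome. They were chosen by name alone, as every gene called Rpl or Rps followed by a number and at most a single letter (a, x, y or l) with or without a further number, together with Rpsa, Rplp0, Rplp1 and Rplp2, while the Rps6k kinases were left out. In the RefSeq gene table for mouse, 89 of 49993 genes carried such a name. Of these, 84 were protein-coding genes, among 21896 protein-coding genes in all, and 5 were pseudogenes (Rps4l, Rps12l1, Rpl6l, Rps3a2 and Rps3a3). The protein-coding genes comprised 52 of the large subunit and 32 of the small subunit.

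Lung tissue came from female BALB/c mice aged 6 to 8 weeks, with 3 mice in each of 2 groups. Mice of the OVA group, a model of acute allergic asthma, were sensitized with intraperitoneal ovalbumin (OVA) and aluminum hydroxide on days 0 and 7. They inhaled aerosolized 3% OVA for 30 min a day from day 14 to day 20, and mice of the PBS group received phosphate-buffered saline alone. Lungs were taken on day 21, and the RNA of each mouse was sequenced as an immunoprecipitated (IP) library of fragments bound by an antibody against N6-methyladenosine (m6A), and an input library of the same fragments, 12 libraries in all. The authors deposited 1 list of m6A peaks for each group, with 27292 peaks in the OVA and 26102 in the PBS list. The lists hold no value of a single mouse, so no difference between them has a replicate check and no test between the groups was made here from them. They also give neither read counts nor expression levels, and the depth behind a peak is unknown.

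In MeRIP-seq, a peak is a stretch of a transcript in which IP fragments outnumber input fragments, and its fold enrichment is that ratio. m6A is placed on mRNA mainly by the METTL3-METTL14 complex, most often in long internal exons and near the stop codon. Ribosomal protein genes give short, abundant mRNAs that begin with a run of pyrimidines, the TOP motif, through which mTORC1 and LARP1 govern their translation. Many of these genes also carry small nucleolar RNA (snoRNA) genes in their introns, whose products guide the chemical modification of ribosomal RNA. Some ribosomal proteins act outside the ribosome as well, such as Rpl5 and Rpl11, which bind Mdm2 when ribosome assembly fails, and Rpl13a, which silences inflammatory mRNAs in macrophages.

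Few ribosomal protein genes had an m6A peak. Each peak in the lists carries an assigned gene, that of the nearest transcript. By this gene, 16 of 84 ribosomal protein genes had a peak in the OVA list, which is 19.0% (95% Wilson interval 12.1% to 28.7%, counting error only), against 47.5% of all protein-coding genes. In the PBS list, 18 of 84 had a peak, which is 21.4% (14% to 31.3%), against 46.1% of all protein-coding genes. Both shares were thus below the share over all protein-coding genes, in each subunit too. By assigned gene, a peak was present for 10 of 52 large subunit genes in the OVA and 11 in the PBS list, and for 6 and 7 of 32 small subunit genes. The ribosomal protein genes are short, with a median RefSeq span of 3179 bp and a longest of 11774 bp (Rps15a), while the median over all protein-coding genes was 17149 bp. Among the 8808 protein-coding genes with a span no longer than 11774 bp, a set chosen after seeing the data, 34.6% (OVA) and 33.3% (PBS) had a peak. The part of gene length in the low share was not tested beyond this.

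By assigned gene, 14 of the 20 ribosomal protein genes with a peak in either list had one in both. These 14 were Rpl7, Rpl7l1, Rpl11, Rpl14, Rpl15, Rpl22, Rpl22l1, Rpl27 and Rpl39 of the large subunit and Rpsa, Rps6, Rps15, Rps26 and Rps28 of the small subunit. Rpl30 and Rps7 had a peak in the OVA list alone, and Rpl10a, Rpl32 and Rps19 in the PBS list alone. Over all protein-coding genes, 11071 had an assigned peak in either list. Of those, 9438 had one in both lists, 971 in the OVA list alone and 662 in the PBS list alone. Whether the named ribosomal protein genes differ between the groups was not tested here.

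The lists name a further gene for each peak, the one on whose exons it was called, and for the ribosomal protein genes the 2 names often differed. Of 18 peaks assigned to a protein-coding member in the OVA list, 12 were also called on that member and 6 on a neighbouring gene. In the PBS list the same held for 14 and 8 of 22 peaks. Over all peaks assigned to protein-coding genes, 15.0% (OVA) and 15.2% (PBS) were called on another gene. In the opposite direction, 10 peaks of the OVA list and 5 of the PBS list were called on a ribosomal protein gene but assigned to another gene. Counted by the gene on which peaks were called, 20 of 84 ribosomal protein genes had a peak in the OVA list (23.8%, 16.0% to 33.9%) and 16 in the PBS list (19.0%, 12.1% to 28.7%). Of all protein-coding genes, 52.0% and 50.5% had one by that count. The number of members was therefore similar under both names, while the genes changed. Over both lists, 20 members had an assigned peak and 22 a called peak, and 13 had both. No peak by either name was found for 55 of the 84 genes, 33 of the large and 22 of the small subunit. That joint count was not made for all protein-coding genes. By assigned gene, 10825 of all 21896 had no peak in either list, compared with 64 of the 84 members. By called gene, these numbers were 9888 and 62.

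**Figure D1:**
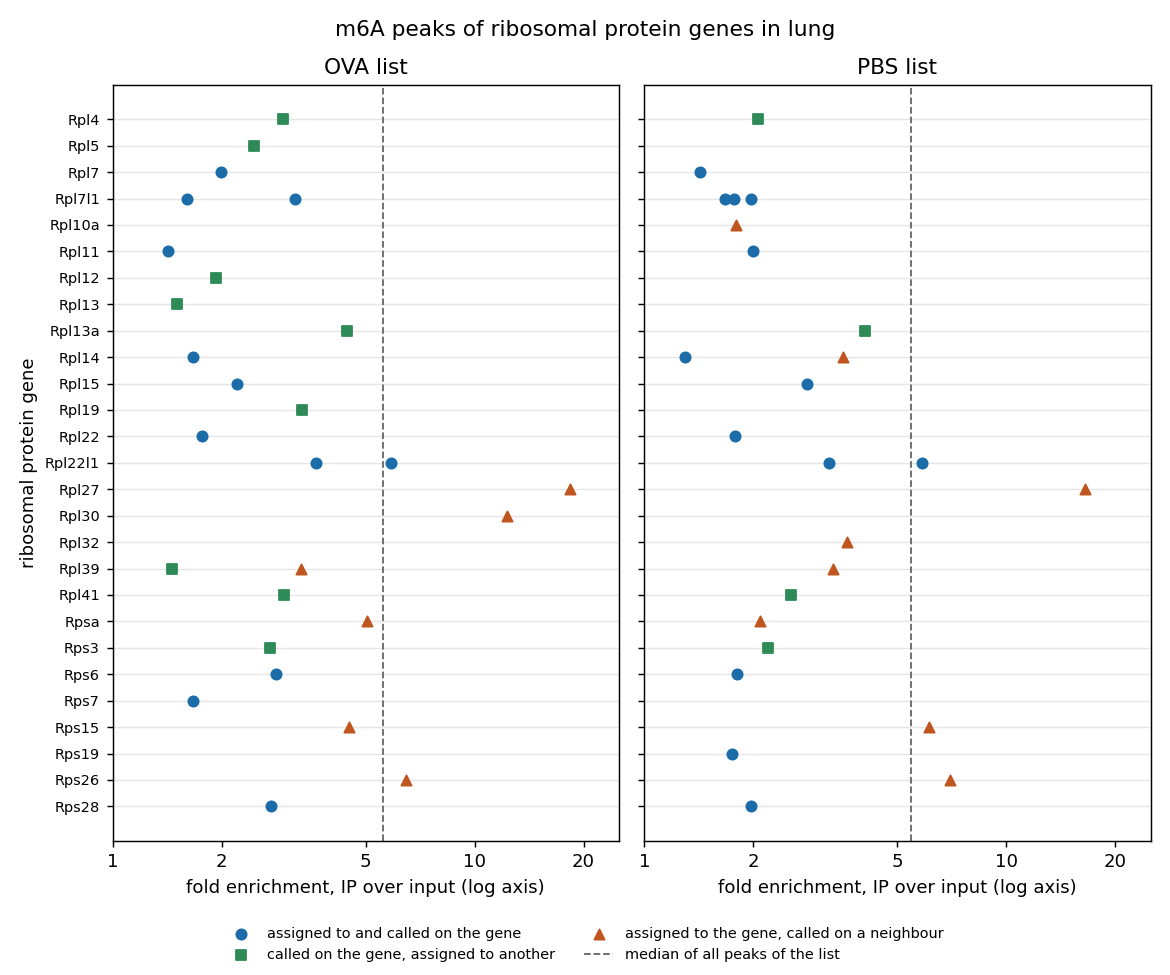
Fold enrichment (IP over input, log axis) of the peaks of the protein-coding ribosomal protein genes named in the text, in the OVA list (left) and the PBS list (right), 1 point per peak, with no replicates. Circles are peaks assigned to and called on the gene, squares were called on it but assigned to another gene, triangles were assigned to it but called on a neighbour, and dashed lines mark the median of all peaks of the list (5.59 and 5.44). The triangles of Rpl27 lie farthest right, at 18.4 and 16.5, and nearly all circles and squares lie left of the line.

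The peaks called on neighbours were the stronger ones, with a median fold enrichment of 5.75 (OVA) and 3.58 (PBS), compared with 2.10 and 1.89 for the peaks both assigned to and called on a member. Rpl27, a large subunit protein, had the highest value among members, a fold enrichment of 18.4 at chr11:101434598-101435673 in the OVA list and of 16.5 at chr11:101434687-101435673 in the PBS list. The log10 of its FDR is listed as minus infinity in both. The peak was called on Rundc1, ended just past the RefSeq end of that gene and lay 6572 bp from Rpl27. A further Rundc1 peak next to it was assigned to Rundc1 itself, and its fold enrichment was 14.4 in the OVA and 13.4 in the PBS list. Both adjoining peaks were thus called on Rundc1, and the one nearer to Rpl27 bore its name.

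Further peaks of this kind were found for 4 other genes in both lists. Rps26, a small subunit protein near the mRNA exit channel, was the name given to a peak on Ikzf4, the gene of the lymphocyte transcription factor Eos. This peak had a fold enrichment of 6.45 at chr10:128634371-128634701 in the OVA list and of 6.99 at chr10:128634102-128634611 in the PBS list, 7865 and 7596 bp from Rps26. The peak named for Rps15 was called on Dazap1, which encodes an RNA-binding protein. It had identical ends in both lists, chr10:80287694-80288022, and a fold enrichment of 4.49 in the OVA and 6.12 in the PBS list. Rpsa, the laminin receptor precursor of the small subunit, was assigned a peak on Slc25a38, a mitochondrial glycine carrier gene, at chr9:120124025-120124355 (OVA, 5.04) and chr9:120124115-120124295 (PBS, 2.08). The Rpl39 peak was called on Upf3b, a factor of nonsense-mediated decay, with a fold enrichment of 3.32 at chrX:37092244-37092573 in the OVA list and 3.31 at chrX:37092214-37092573 in the PBS list.

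The other neighbour peaks stood in 1 list each. In the OVA list, Rpl30 was assigned a peak of 91 bp called on D730044K07Rik at chr15:34443629-34443719, 353 bp from Rpl30 in RefSeq. This peak lay on the deposited transcript of Rpl30 and outside the RefSeq span of D730044K07Rik, unlike the other neighbour peaks. Its fold enrichment of 12.3 came with a log10 FDR of only -2.53. In the PBS list, Rpl32 was assigned a peak on Efcab12 (chr6:115810878-115811118, 3.62) and Rpl14 one on the ectonucleotidase gene Entpd3 (chr9:120567402-120567612, 3.54). Rpl10a was assigned a peak on the Fanconi anemia gene Fance, with a fold enrichment of 1.79. None of the 6 neighbour peaks of the OVA list or the 8 of the PBS list overlapped the RefSeq span of the ribosomal protein gene whose name it bore, and their median distance from it was 5490 and 4157 bp. All but the Rpl30 peak lay on the RefSeq span of the gene on which they were called. Over all peaks called on protein-coding genes, 97.7% (OVA) and 97.8% (PBS) did so. All but 1 of the neighbour peaks were annotated as 3' UTR, and the exception was the exonic peak of Rpl30.

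**Figure D2:**
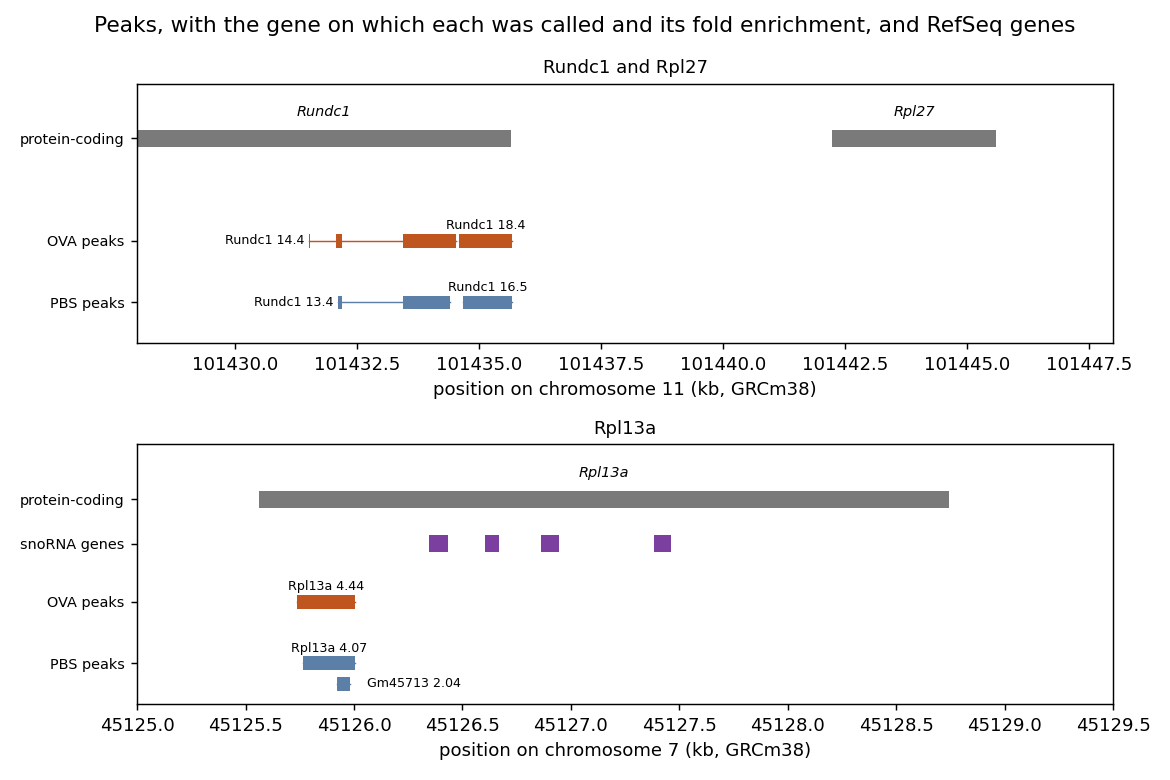
Positions of peaks and RefSeq genes around Rpl27 (top, chromosome 11) and Rpl13a (bottom, chromosome 7), in kb on GRCm38. Grey boxes are protein-coding genes from first to last base (Rundc1 begins left of the range drawn), purple boxes snoRNA genes, and orange and blue boxes the exonic blocks of OVA and PBS peaks, joined by lines within a peak and marked with the gene on which the peak was called and its fold enrichment. The peaks that bear the name Rpl27 (18.4 and 16.5) lie at the end of Rundc1, and those called on Rpl13a (4.44 and 4.07) lie beside the snoRNA gene Snord35a.

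Peaks called on ribosomal protein genes themselves were weak. The 22 such peaks of the OVA list had a median fold enrichment of 2.58 (1.42 to 5.87), and the 19 of the PBS list one of 1.99 (1.29 to 5.85). Over all peaks called on protein-coding genes the medians were 5.48 and 5.37. Only 1 of the 22 and 1 of the 19 lay above the median of all peaks of its list, and in both lists this was a peak of Rpl22l1. A fold enrichment of at least 2 was reached by 13 of 22 and 9 of 19, compared with 89.2% and 88.8% of the peaks called on protein-coding genes. All of these member peaks had an FDR under 0.05. A low enrichment can thus stand beside a low FDR, as for Rpl41, whose OVA peak had a fold enrichment of 2.97 and a log10 FDR of -318.

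Rpl22l1, a paralog of Rpl22 that can take its place in the large subunit, had the strongest peaks of its own. Its 2 peaks had the same ends in both lists. The first, at chr3:28806741-28807038, had a fold enrichment of 3.65 in the OVA and 3.24 in the PBS list. The second, at chr3:28807156-28807424, ended at the last base of the gene in RefSeq and had 5.87 and 5.85. The authors annotated both as 3' UTR and assigned them to a retained-intron transcript. A peak called on Gm33051, annotated as antisense, overlapped this end of the gene in both lists (chr3:28807204-28813985, 7.87 and 10.9). The libraries kept strand, but whether the peak calling used it is not given in the sources used here, so signal of Rpl22l1 and of Gm33051 cannot be told apart. Rpl22 itself, an RNA-binding protein needed for T-cell development, had 1 weak 3' UTR peak in each list (1.76 and 1.78).

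Rpl7l1, a paralog of Rpl7 with a role in large subunit assembly, had 2 peaks in the OVA and 3 in the PBS list. All were annotated as 3' UTR and assigned to a retained-intron transcript, but none had an exonic block on it. The peak nearest the gene's end was at chr17:46774085-46774325 (3.2) in the OVA list and at chr17:46774145-46774325 (1.97) in the PBS list. The others lay between 1.6 and 1.77 and did not overlap between the lists. The canonical Rpl7 had 1 exonic peak per list, with 1.99 and 1.42, placed near its start at 19.0% and 26.7% of the gene's length. Of the 7 protein-coding genes named as paralogs by the letter l, only Rpl7l1 and Rpl22l1 had a peak. Rpl3l, Rpl10l, Rpl32l, Rpl39l and Rps27l had none, although the names Rpl32 and Rpl39 each had one.

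Among the other large subunit genes with a peak under both names, Rpl15 had a 3' UTR peak with a fold enrichment of 2.2 at chr14:18268954-18269044 in the OVA list and of 2.82 at chr14:18268924-18269074 in the PBS list. Rpl11 was listed at 1.42 and 1.99, with 2 exonic blocks in the OVA and 3 in the PBS list, and Rpl14 at 1.67 and 1.29. In the small subunit, Rps6, the substrate of the S6 kinases, had a 3' UTR peak of 2.82 at chr4:86854659-86854869 in the OVA list and of 1.8 at chr4:86854659-86854839 in the PBS list. Rps7 was present in the OVA list alone (1.67), and Rps19, the gene most often mutated in Diamond-Blackfan anemia, in the PBS list alone (1.74).

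Rps28 had a peak in both lists at chr17:33819026-33819116, with 2.74 and 1.97, but this position lay 3920 bp from Rps28 in RefSeq and inside the span of Kank3. A Kank3 peak partly overlapped it in the OVA list (1.54) and began just past it in the PBS list (1.18), so the signal cannot be assigned to Rps28 with certainty. In each list the Rps28 peak was the only one called on a protein-coding member that fell outside that member's RefSeq span.

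The peaks called on ribosomal protein genes but assigned elsewhere mostly bore the names of small RNAs. In the OVA list, 8 of the 22 peaks called on members were assigned to a snoRNA or miRNA, which is 36.4%, and in the PBS list 3 of 19, which is 15.8%. The share over all peaks called on protein-coding genes was 2.16% for either list. None of these 8 and 3 peaks had an exonic block on the small RNA gene it was named for. In RefSeq, 30 of the 84 members held at least 1 snoRNA gene. Of these 30 host genes, 8 had a called peak in the OVA and 5 in the PBS list, compared with 12 and 11 of the 54 other members. These are 26.7% and 16.7% of the hosts and 22.2% and 20.4% of the others, with the hosts above in the OVA list and below in the PBS list.

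Rpl13a had the strongest of these peaks. It was assigned to Snord35a, 1 of 4 snoRNA genes in Rpl13a, and had a fold enrichment of 4.44 at chr7:45125736-45126004 in the OVA list and of 4.07 at chr7:45125765-45126004 in the PBS list. In the PBS list a shorter peak within it was called on Gm45713 (2.04). Rps3, a small subunit protein that also acts in DNA repair and NF-kB signaling, had one assigned to Snord15b, with 2.72 at chr7:99478762-99479121 and 2.2 at chr7:99478851-99479091. Each of these genes thus had a peak in both lists, and each pair overlapped.

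Further genes had such a peak in the OVA list alone. Rpl5, the partner of Rpl11 in binding Mdm2, had one assigned to the snoRNA gene Gm26387, with 2 exonic blocks and a fold enrichment of 2.45 at chr5:107907188-107908108. Rpl12 (Snora65, 1.93) and Rpl39 (Snora69, 1.46) were weaker. The name of a miRNA gene was given to peaks of Rpl19 (Gm27597, 3.34 at chr11:98030403-98030492) and Rpl13 (Mir7079, 1.51). Both lay at the end of the gene, at 99.5% and 96.9% of its length.

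The last 2 genes of this kind had peaks named for protein-coding neighbours in both lists. Rpl4 had a peak assigned to Snapc5, a subunit of the snRNA-activating complex, with 2.95 at chr9:64178336-64178666 in the OVA list and 2.06 at chr9:64178396-64178606 in the PBS list. Rpl41, which encodes the shortest ribosomal protein, had one assigned to the zinc finger gene Zc3h10, with 2.97 at chr10:128548113-128548294 and 2.54 at chr10:128548113-128548264. Both peaks overlapped the end of the ribosomal protein gene.

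By region, 20 of 22 peaks called on members in the OVA list and 16 of 19 in the PBS list were annotated as 3' UTR. These shares of 90.9% and 84.2% compare with 59.1% and 59.0% over all peaks called on protein-coding genes. No member peak of the OVA list was in the 5' UTR, and 1 of the PBS list was, while 13.0% and 12.7% of the comparison peaks were. Where the gene's strand was known, the peak's midpoint was placed along the RefSeq span, counted from the gene's start. It lay beyond 75% for 16 of 20 peaks in the OVA list and 12 of 17 in the PBS list. This position was not computed for the comparison peaks, so it cannot be called particular to the members. The member peaks were also short, with a median genomic width of 269 and 181 bp, compared with 421 and 392 bp.

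By transcript type, 8 of the 18 assigned peaks in the OVA list and 11 of the 22 in the PBS list were assigned to a protein-coding transcript, 7 and 8 to a retained-intron transcript, and 3 and 3 to a processed transcript. Over all peaks assigned to protein-coding genes, 25.5% and 25.0% were assigned to retained-intron transcripts, against 38.9% and 36.4% for the members. Such an assignment does not place the peak on that transcript, as for Rpl7l1. The 8 and 11 peaks assigned to protein-coding transcripts also included all 6 and 8 peaks called on a neighbouring gene.

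Between the lists, 15 of 18 assigned member peaks of the OVA list (83.3%) overlapped a member peak of the PBS list by at least 1 bp of exonic sequence, and 15 of 22 of the PBS list (68.2%) overlapped one of the OVA list. Over all peaks, 80.6% of the OVA list and 85.5% of the PBS list overlapped a peak of the other. Counted by the gene of the call, 15 of 22 and 15 of 19 member peaks overlapped. Among peaks called on the member itself, those without a partner had fold enrichments from 1.46 (Rpl39) to 3.34 (Rpl19) in the OVA list.

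Some ribosomal protein genes without a peak of their own touched a peak of another gene by a few bases. The end of Rpl31 overlapped a Tbc1d8 peak by 18 bp in both lists (4.34 and 2.9) and a further one by 2 bp in the OVA list (16.6). Rpl18 shared 15 bp with a peak of the sphingosine kinase gene Sphk2 (2.91 and 4.44). Neither was assigned to or called on the ribosomal protein gene.

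Other parts of the translation machinery had higher shares of genes with a peak, given here as a description without a test. Of 78 mitochondrial ribosomal protein genes, which serve the separate ribosome of mitochondria, 53 (67.9%) had an assigned peak in the OVA and 53 in the PBS list. Their strongest peaks were on Mrpl19 (51.9) and Mrps24 (29.0, called on Urgcp) in the OVA list and on Mrpl45 (30.6) and Mrps35 (28.1) in the PBS list. Of 63 ribosome biogenesis factors, 45 (71.4%) had one in each list, led by Rrs1 (48.6) and the rRNA methyltransferase gene Fbl (41.4) in the OVA list and by Rrs1 (52.8) and Gar1 (39.0) in the PBS list. Peaks called on and assigned to the same gene had a median fold enrichment of 5.22 and 5.0 for mitochondrial ribosomal proteins and of 5.78 and 6.02 for biogenesis factors, against 2.10 and 1.89 for cytosolic ribosomal proteins. Other groups lay between, with 2.73 and 2.81 for oxidative phosphorylation, 3.04 and 3.61 for the mTORC1 group, 3.26 and 3.12 for initiation factors and 3.46 and 4.44 for the proteasome, while elongation and release factors had 6.50 and 5.46.

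Among initiation factors, 33 of 56 (58.9%) had a peak in the OVA and 31 (55.4%) in the PBS list. Eif3j1 (46.7) and Eif2b2 (14.7) led in the OVA list, and Eif1a (16.2) and Eif2ak3 (15.3), the latter a kinase that halts initiation under endoplasmic reticulum stress, in the PBS list. Of 14 elongation and release factors, 6 had a peak in each list. The release factor genes Gspt1 (24.4) and Gspt2 (14.2) led in the OVA list, and Gspt1 (11.9) and Eef1g (10.5, called on Tut1) in the PBS list. Of 29 genes of the mTORC1, S6 kinase and LARP group, 22 (75.9%) and 23 (79.3%) had one. Akt1s1 (43.4) and Rps6kc1 (19.1) led in the OVA list, and Rps6ka5 (37.9) and Rps6kb2 (23.1, called on Carns1) in the PBS list.

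Among other mRNAs with a TOP start, a list that shares genes with the elongation factors, a peak was present for 11 of 20 (55.0%) in the OVA and 12 (60.0%) in the PBS list. Counted per gene and at an FDR under 0.05, Eef1g (12.2, called on Tut1) and Vim (4.36) led in the OVA list. Tpt1 (12.3) and Eef1g (10.5, called on Tut1) did so in the PBS list. Peaks both assigned to and called on these genes were about as weak as those of the ribosomal proteins, with a median fold enrichment of 2.02 and 1.81. Of the housekeeping groups, 20 of 49 proteasome subunits (40.8%) had a peak in the OVA and 18 (36.7%) in the PBS list. The leading peaks were those of Psmc1 (29.6, called on Kcnk13) and Psme2b (21.9, called on 9930111J21Rik1) in the OVA list and of Psme2b (28.6, called on 9930111J21Rik1) and Psmd4 (21.2, called on Pip5k1a) in the PBS list. Nuclear genes for subunits of oxidative phosphorylation had one in 40 of 83 cases (48.2%) in the OVA and 31 (37.3%) in the PBS list. Cox8a (26.6, called on Naa40) and Ndufs4 (19.4) led in the OVA list, and Cox8a (20.5, called on Naa40) and Ndufa13 (17.3, called on Tssk6) in the PBS list.

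**Figure D3:**
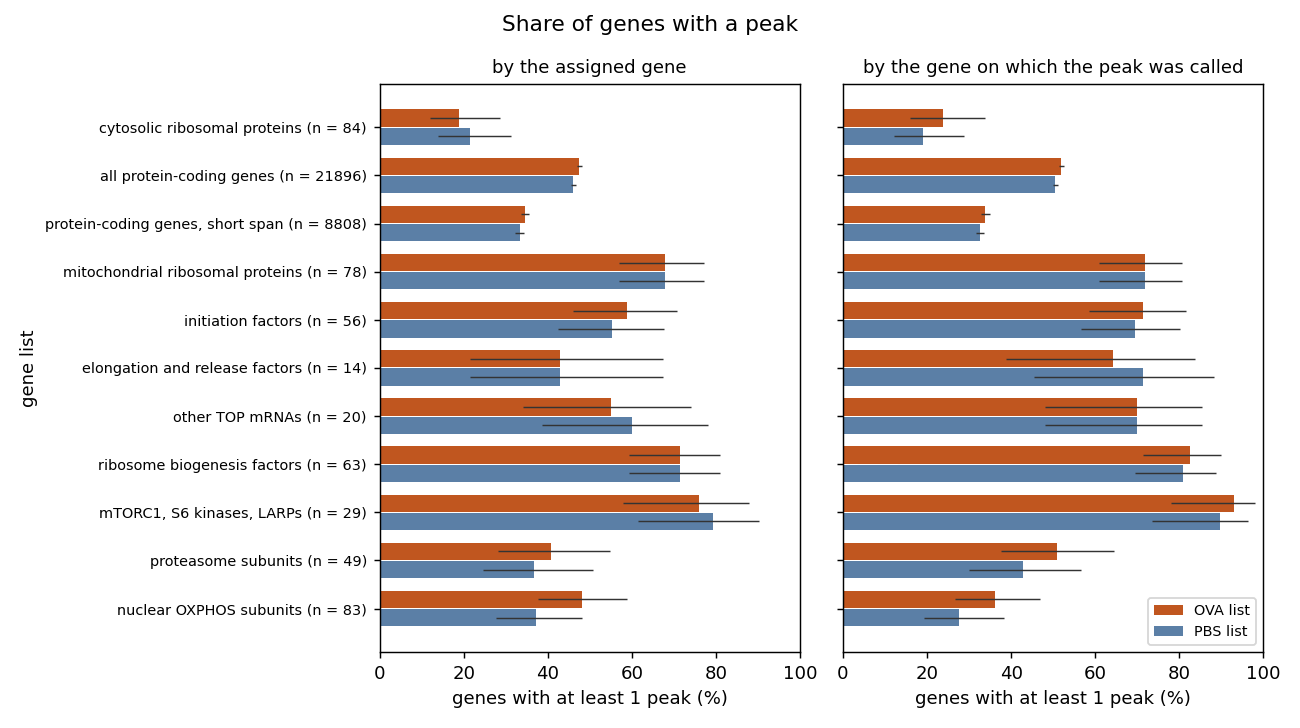
Share of genes with at least 1 peak in the OVA list (orange) and the PBS list (blue), by the assigned gene (left) and by the gene on which the peak was called (right), with 95% Wilson intervals that cover counting error only. Short span means no longer than the longest ribosomal protein gene. The cytosolic ribosomal proteins had the lowest share of all groups drawn, between 19.0% and 23.8%.

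By the gene of the call, the shares were 71.8% and 71.8% for mitochondrial ribosomal proteins, 82.5% and 81.0% for biogenesis factors, 93.1% and 89.7% for the mTORC1 group and 36.1% and 27.7% for oxidative phosphorylation. The order thus kept the cytosolic ribosomal proteins last.

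The starts of the genes were also read for the pyrimidine run of TOP mRNAs. RefSeq promoter sequences on GRCm38.p6 matched 64 of the 84 genes, with 76 annotated starts. A run is at least 8 C or T in a row on the gene's strand, within 15 bases on either side of the start. It was present at 29 of 76 starts (38.2%), compared with 12% of the 32851 starts of all genes. Such a run can lie wholly before the annotated start, as for Rpl4 below, and need not be part of the mRNA. The annotated start base itself was C at 23 of 76 member starts (30.3%), compared with 16.3% over all genes. Of the 19 genes with a called peak in either list and a sequence, 9 had such a run (47.4%), and of the 45 without a called peak, 19 did (42.2%). The windows are shown for the genes with a called peak in both lists that had a run, 6 of 12, and for the 4 genes without a peak that had the longest runs. The run is in capitals, and the annotated start is the base after the first 15.

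Rpl4 (chr9:64173372-64173401, plus strand): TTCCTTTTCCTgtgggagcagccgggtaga
Rpl13a (chr7:45128731-45128760, minus strand): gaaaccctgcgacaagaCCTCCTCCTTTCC
Rpl14 (chr9:120571502-120571531, plus strand): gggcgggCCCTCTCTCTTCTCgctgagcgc
Rpl15 (chr14:18270972-18271001, minus strand): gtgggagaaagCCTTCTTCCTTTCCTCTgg
Rpl22l1 (chr3:28805493-28805522, plus strand): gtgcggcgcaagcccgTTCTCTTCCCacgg
Rps6 (chr4:86857353-86857382, minus strand): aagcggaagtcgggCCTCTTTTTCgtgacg
Rpl7a (chr2:26910792-26910821, plus strand): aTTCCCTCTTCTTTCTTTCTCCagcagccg
Rpl27a (chr7:109519180-109519209, plus strand): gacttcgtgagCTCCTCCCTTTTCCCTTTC
Rpl34 (chr3:130730323-130730352, minus strand): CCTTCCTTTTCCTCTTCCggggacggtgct
Rpl35 (chr2:39005117-39005146, minus strand): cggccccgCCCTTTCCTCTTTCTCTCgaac

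The pseudogenes that share the naming pattern had a few exonic peaks, all called on the pseudogene itself. Rps3a2 had a peak of 2.64 at chr14:88123075-88123369 in the OVA list, which overlapped 2 shorter ones of 2.15 and 1.28 in the PBS list. Rps3a3 had one in the OVA list alone (2.25 at chr13:108671073-108671250). Their parent gene Rps3a1 had none in either list. Rps4l had a peak of 3.29 in the OVA and of 3.37 in the PBS list at different positions, and Rps4x had none. Near-identical copies can exchange reads in mapping, so the origin of these peaks is uncertain.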

How the data were processed

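The libraries were made from ribosomal RNA-depleted, fragmented lung RNA. The authors used FASTP for trimming, HISAT2 for mapping to the Ensembl version 101 mouse genome, exomePeak for peak calling and ChIPseeker for annotation, per the study's methods and the submitters' processing notes, which give no versions of these tools. How the 3 mice of a group were combined is not given in the sources used here. As deposited, a fold enrichment is the authors' ratio of IP to input, and was compared only within a list. The deposited score is the log10 of the p value or FDR. Identifiers of the genes on which peaks were called were paired with symbols for 27259 of 27292 OVA peaks and 26070 of 26102 PBS peaks. RefSeq spans are on GRCm38.p6, and the overlap of called peaks with them was used to check that the builds are the same.

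Peaks were matched to genes by symbol and compared between lists by their exonic blocks, with a minimum overlap of 1 bp. No tests were run, as there is 1 list per group. Alternatives were an FDR under 0.05, a fold enrichment of at least 2, protein-coding transcripts only, the gene of the call, leaving out paralogs, RefSeq positions and other overlap rules. The members and lists were chosen with earlier results of these data known. Some genes with a peak are not reported here. The other members with a peak were named, with positions where the fold enrichment was at least 2, and from each other list the 2 genes with the highest fold enrichment at an FDR under 0.05 in each peak list. The promoter sequences and the loci drawn were chosen after the peaks were seen. The overlap code was tested on simulated data. The software was pandas 2.3.3 and numpy 2.4.6 for tables, scipy 1.17.1 for intervals and matplotlib 3.10.9 for plots, under Python 3.11.15.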

Additional observations from a re-analysis of the deposited data

How the results depend on the processing

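No paired analysis was possible because each group has 1 joint peak list with no value of a single mouse, and for the same reason no replicate could be left out. Of 46 recomputed values, 29 stayed within 1.5 times the value reported. An FDR under 0.05 removed no member peak. With protein-coding transcripts only, 8 members and 8 peaks were left in the OVA list, with a median fold enrichment of 4.77. In the PBS list 11 members and 11 peaks were left, with a median of 3.54. Called on a neighbouring gene were 6 of the 8 and 8 of the 11 peaks, so these medians mostly describe peaks of other genes. With peaks on the member's RefSeq span only, 9 and 10 members were left, a count given without a share over all genes. With peaks both assigned to and called on the member, a choice made after seeing the data, 10 and 11 were left. These are 11.9% and 13.1% of the members. By that rule, 43.3% (OVA) and 41.8% (PBS) of all protein-coding genes had a peak, and 30.3% and 29.2% of those of short span. A fold enrichment of at least 2 left 10 members and 11 peaks in the PBS list, with a median of 3.62, and 8 peaks in each list that overlapped a peak of the other. Identical ends left 4 overlapping peaks in each list. The planned comparison with genes of short proteins was not run, as protein sequences were not used here. It was replaced by genes of short span. The lists give no read counts, so no error can be given for a fold enrichment, and a gene without a peak cannot be called unmethylated.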

Other observations

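Among ribosomal protein genes that fall outside the naming rule, Fau, which encodes a ubiquitin-like protein fused to a small subunit protein, had a 3' UTR peak at chr19:6059407-6059524 in both lists, enriched 2.18-fold in the OVA and 1.75-fold in the PBS list. Rpl36al, a paralog of Rpl36a, had a peak called on itself, with 6.45 at chr12:69182730-69183231 in the OVA list and 4.12 at chr12:69182906-69183172 in the PBS list. In the PBS list a shorter peak of this name, called on Gm49383 (4.35), lay within the peak called on Rpl36al. Peaks with the name Rpl36al were also called on Gm49384 (22.5 and 27.0) and Dnaaf2 (18.9 and 16.2). Rack1, a scaffold protein on the small subunit, had no peak.

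By assigned gene, ribosomal protein pseudogenes other than those of the naming rule bore 39 peaks under 24 names in the OVA list. In the PBS list they bore 32 peaks under 25 names. The number of such pseudogenes in all is not given here, so these counts cannot be set against those of the protein-coding genes. Only 6 peaks in each list were called on the pseudogene itself, and 33 and 26 were called on another gene. An example is the peak assigned to Rpl35a-ps6 at chr5:123253805-123256040, which was called on Wdr66 and had a fold enrichment of 91.9 in the OVA and 15.1 in the PBS list. Among those called on the pseudogene, Rpl15-ps2 and Rps12-ps1 had a peak in both lists. Rps12-ps1, on chromosome X, had 6.16 and 4.65.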
